A study of Mus musculus with 4 samples.

Results

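Tbx21 and Eomes encode the T-box transcription factors T-bet and Eomesodermin, and their rows were read in unconventional alpha beta T cells (UTCαβ) sorted from sarcomas. These are 2 of the 27998 genes in the deposited count tables. The rule kept 21342 of 32525 barcodes, namely those with at least 1 unique molecular identifier (UMI) of Cd3e, at least 200 genes, at most 20000 UMIs and at most 10% of UMIs from mitochondrial genes. Single cells that carried CD45 and TCRβ, and lacked CD11b, TCRγδ, CD4 and CD8, were sorted from sarcomas that male mice formed after an injection of the carcinogen 3-methylcholanthrene. There were 2 libraries from Csf3r+/+ mice and 2 from Csf3r-/- mice. All mice carried the tumour and received the same carcinogen, and Csf3r-/- mice lack the receptor for granulocyte colony-stimulating factor in every cell, so that the loss is not limited to neutrophils or to T cells. The age of the mice is not given in the labels.

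T-box factors bind DNA through a shared domain and direct the effector programmes of T cells and natural killer (NK) cells. T-bet is induced by interferon and interleukin 12 signals and drives Ifng, while Eomes is known in CD8 T cells and NK cells, where it goes with memory and with prolonged stimulation. The factors overlap in function, and many lymphocytes hold both. The cells here lack CD4 and CD8 on their surface and include cells with NK cell receptors as well as cells of a type 3, interleukin 17 kind.

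Tbx21 (ENSMUSG00000001444) lies on the minus strand of chromosome 11 from 97098071 to 97115331 (GRCm38), and its single annotated transcript has 6 exons. Eomes (ENSMUSG00000032446) lies on the plus strand of chromosome 9 from 118478212 to 118486132, with 3 annotated transcripts. The antisense gene Gm33460 overlaps Eomes and has no row in the count tables. Since both factors were counted from their own transcripts, the bases in front of each start are shown to place the genes, from the RefSeq-based promoter table (GRCm38.p6), 250 bases each, at chr11:97115332-97115581 on the minus strand and chr9:118477939-118478188 on the plus strand. Capitals mark matches to the letters CCAAT and GGGCGG (GC box), searched on both strands.
Tbx21: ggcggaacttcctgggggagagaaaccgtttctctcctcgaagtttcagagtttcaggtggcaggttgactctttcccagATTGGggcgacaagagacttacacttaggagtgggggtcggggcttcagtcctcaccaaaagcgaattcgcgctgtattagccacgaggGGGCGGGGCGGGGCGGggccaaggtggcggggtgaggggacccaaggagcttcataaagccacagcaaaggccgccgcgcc
Eomes: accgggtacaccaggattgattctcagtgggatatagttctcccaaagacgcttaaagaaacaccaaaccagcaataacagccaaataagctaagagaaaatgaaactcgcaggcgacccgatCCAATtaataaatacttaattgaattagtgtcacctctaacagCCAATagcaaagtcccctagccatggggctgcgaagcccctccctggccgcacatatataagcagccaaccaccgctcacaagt
The stretch before Tbx21 held 3 overlapping GC boxes from 81 bases before the start and 1 CCAAT match on the other strand, at a GC content of 60.8%. That before Eomes held 2 CCAAT matches and no GC box, at a GC content of 46.4%. Of all 27025 promoters in the table, 37.5% held CCAAT and 35.4% held GGGCGG. The T-box site AGGTGTGA, TTCNNNGAA, TGTGGT and TATAAA had no match in either stretch, and 1.3% of all promoters held AGGTGTGA.

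Libraries held 2843 and 6458 cells in Csf3r+/+ and 5215 and 6826 in Csf3r-/-, with 9827411 to 23753033 UMIs in total. Median UMIs per cell were 3055 and 3026 in Csf3r+/+ and 2239 and 1983 in Csf3r-/-. The number after each barcode told the libraries apart but did not name the mouse. The targeted gene, Csf3r, had 1 to 3 UMIs a library in either genotype, so that it does not check the labels. Pairs of libraries shared 20 to 56 barcodes. Of the defining markers, Cd3d, Cd3e, Cd3g and Cd247 summed to 3003 to 4550 UMIs per 1000000 UMIs of the library (CPM). Cd4, Cd8a and Cd8b1 summed to 11.3 to 33.8 CPM. The CD3 chains were the only 4 of 7 listed T cell receptor and CD3 genes with a row in the count tables. The constant regions of the T cell receptor were not read. Macrophage markers summed to 24.1 and 316 CPM in Csf3r+/+ and to 132 and 1540 CPM in Csf3r-/-, so that the genotypes overlapped and library 2 was the higher in each. Their part in the results was not tested, apart from a fit without cells that held other cell types' markers.

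Tbx21 and Eomes were both lower in the Csf3r-/- libraries, without passing the threshold. Tbx21 stood at 36.5 and 53.2 CPM in Csf3r+/+ and at 17.8 and 15.8 CPM in Csf3r-/-, from 359, 1264, 252 and 257 UMIs. Eomes stood at 15.3 and 37.4 CPM in Csf3r+/+ and at 11.8 and 8.25 CPM in Csf3r-/-, from 150, 889, 167 and 134 UMIs. For neither gene did the genotypes overlap, which was also true, in the same direction, of 17.4% of 11491 genes tested. Csf3r+/+ library 2 held the highest level of both.

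The means were 44.9 ± 11.8 against 16.8 ± 1.39 CPM for Tbx21 and 26.3 ± 15.7 against 10.0 ± 2.50 CPM for Eomes (SD, n = 2 libraries a genotype). On the log2 scale the differences, Csf3r-/- minus Csf3r+/+, were -1.54 (SE 0.29, edgeR quasi-likelihood adjusted p = 0.128) for Tbx21 and -1.55 (SE 0.53, edgeR adjusted p = 0.299) for Eomes. edgeR called 0 of 11491 genes (percent called 0), with 1663 at an unadjusted p under 0.05, while DESeq2 called 626. DESeq2 gave Tbx21 an adjusted p of 0.00153 and Eomes 0.0835. The smallest p that an exact permutation test of 2 against 2 libraries allows, 0.33, is above the threshold. Without Csf3r+/+ library 1 both genes passed in edgeR (adjusted p = 0.0195 and 0.0306), and 847 genes were called.

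**Figure D1:**
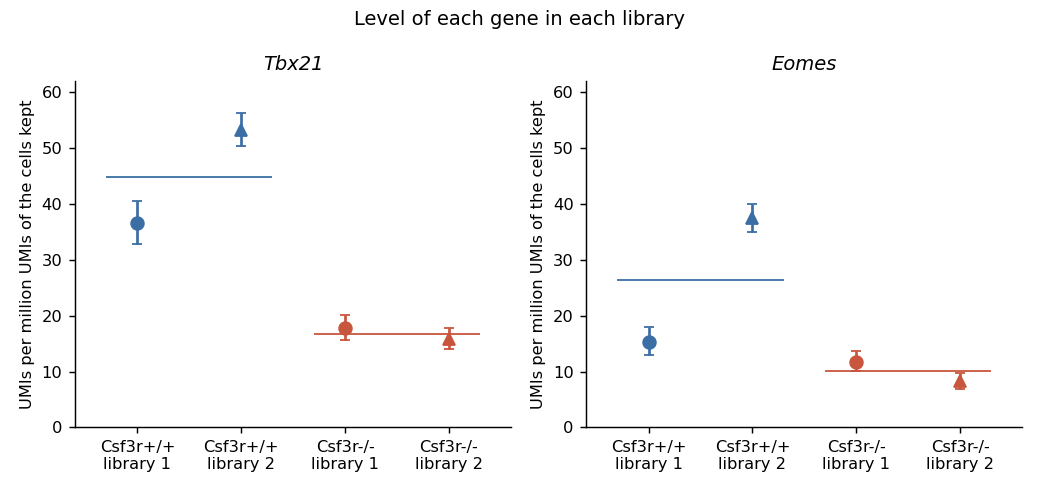
Level of Tbx21 (left) and Eomes (right) in CPM, for each library, with circles for library 1 and triangles for library 2 of a genotype. Bars are exact 95% Poisson intervals, which cover counting error only, and lines are genotype means: for Tbx21, the Csf3r+/+ libraries stood at 36.5 and 53.2 and the Csf3r-/- libraries at 17.8 and 15.8.

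Of the other T-box genes, Mga, which encodes a repressor with both a T-box and a MAX-binding domain, stood at 17.7 and 21.2 CPM in Csf3r+/+ and 30.7 and 26.6 CPM in Csf3r-/- (edgeR adjusted p = 0.46). Tbx3 and Tbx6 had 2 to 15 UMIs a library, and each other listed member had at most 1 UMI in any library. Of the receptors, kinases and factors listed as inducers or regulators of T-box factors, 29 of 30 were tested between genotypes and 0 passed, with a median log2 difference of 0.16 beside 0.00 over all genes. Il12rb2, which encodes the signalling chain of the interleukin 12 receptor, had a log2 difference of -1.50 (SE 0.76, edgeR adjusted p = 0.458). Its libraries overlapped between genotypes, at 8.65 and 35.3 CPM in Csf3r+/+ and 6.35 and 10.8 CPM in Csf3r-/-. Ifngr2, a chain of the interferon gamma receptor, had a log2 difference of 1.68 (SE 0.40, edgeR adjusted p = 0.185).

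In single cells, a Tbx21 UMI was found in 10.9% and 16.3% of Csf3r+/+ cells and in 4.14% and 3.22% of Csf3r-/- cells. For Eomes the shares were 4.43% and 9.97% in Csf3r+/+ and 2.19% and 1.48% in Csf3r-/-. Most positive cells held 1 UMI: in Csf3r+/+ library 2, 882 of 1055 Tbx21 cells and 489 of 644 Eomes cells did. A cell without a UMI therefore may still have held the transcript.

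The background was read in 57 barcodes with macrophage markers and no CD3 UMI, at a median of 6041 UMIs. In Csf3r+/+ library 1, 1 such barcode held 1 Tbx21 UMI and 1 held 3 Eomes UMIs, over all libraries a share of 1.75% for each gene. All 4 Tbx21 shares were above this pooled share. The Eomes share in Csf3r-/- library 2 was below it and so was not shown to exceed it. These shares are at unlike depths, since cells of that library had a median of 1983 UMIs. Per UMI, the pooled background held 2.61 CPM of Tbx21 and 7.84 CPM of Eomes, from 1 and 3 UMIs. Cells of Csf3r-/- library 2 held 15.8 and 8.25 CPM. For each gene the pooled share rests on 1 barcode of Csf3r+/+ library 1. The part of free RNA in the shares of cells was not tested. Within single libraries the barcodes were too few: 0 of 13 in Csf3r+/+ library 2, 0 of 6 in Csf3r-/- library 1 and 0 of 35 in Csf3r-/- library 2 held either factor, which allows shares of up to 23.1%, 50% and 8.57%. Each share of cells lay below the limit of its own library, so none was shown to exceed it.

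Both factors were found in the same cell in 20 and 129 cells of Csf3r+/+ and in 22 and 8 cells of Csf3r-/-. If the factors had been found independently, 13.7, 105, 4.72 and 3.26 such cells would be counted, so the observed number was 1.46, 1.23, 4.66 and 2.46 times that. Deep cells give both UMIs more often: cells with both had a median of 4907 to 6190 UMIs and cells with neither 1959 to 2955. After each cell was thinned to 1500 UMIs, 2, 17, 3 and 1 cells held both, or 0.82, 0.84, 2.47 and 1.32 times the number under independence. At this depth Csf3r+/+ library 2 showed no excess of double-positive cells, with 17 against 20.3 under independence. Counts in Csf3r+/+ library 1 and in both Csf3r-/- libraries were too small to read. Thinning also cut the cells with an Eomes UMI in Csf3r+/+ library 2 from 644 to 269, so a small excess could go undetected.

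**Figure D2:**
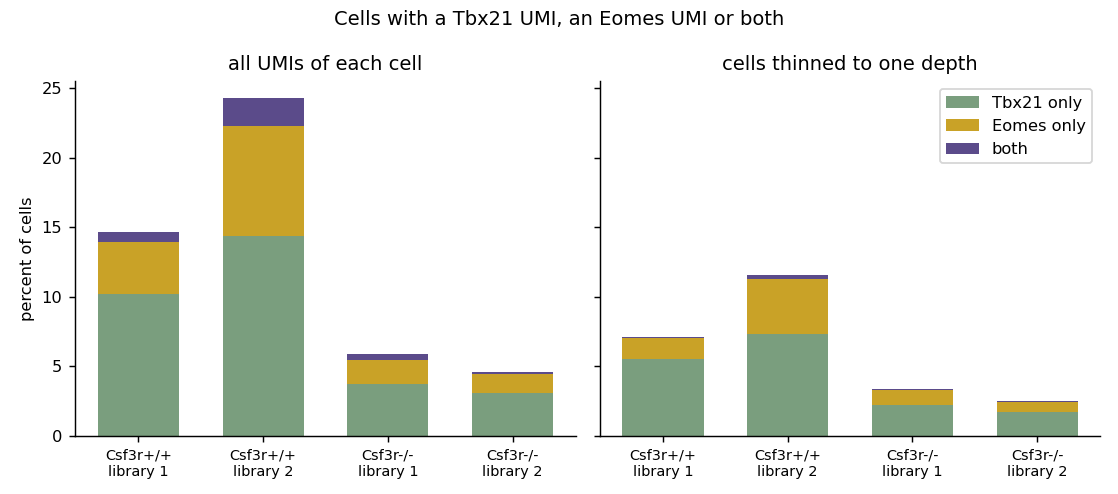
Percent of cells in each library with a Tbx21 UMI only (green), an Eomes UMI only (yellow) or both (purple), for all UMIs of a cell (left) and after thinning to 1500 UMIs (right). Cells with only one of the factors made up most of every bar, and the Csf3r+/+ bars were the taller ones at both depths.

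Next, cells were set apart by marker genes other than Tbx21 and Eomes, and the level of each factor was compared between the marked cells and all other cells of the same library. The 13 groups of marked cells overlap. Tbx21 passed as higher in 3 of them and lower in 4, and Eomes as higher in 5 and lower in 2 (edgeR, library as block).

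Tbx21 was highest in cells of type 1 and NK-like kind. In cells with an Ifng UMI, the T-bet target that encodes interferon gamma, it stood at 60.7, 64.5, 60.5 and 50.3 CPM (Csf3r+/+ libraries 1 and 2, then Csf3r-/- libraries 1 and 2). Other cells held 29.4, 46.6, 12.8 and 12 CPM. The log2 difference was 1.34 (SE 0.26, edgeR adjusted p = 0.0256; 2.11% of genes were called higher). Cells with 3 or more UMIs of Gzmb, the granzyme B gene, held 61.7, 63.7, 62.7 and 45.6 CPM against 23.7, 48.3, 12 and 11.9 CPM in other cells, a log2 difference of 1.50 (SE 0.30, edgeR adjusted p = 0.0384; 2.37% called higher). Cells with a UMI of any Ly49 gene (Klra genes, receptors for major histocompatibility class I) held 63.4, 54.3, 52.4 and 39.9 CPM against 12.4, 48.9, 6.05 and 7.40 CPM in other cells, with a log2 difference of 1.97 (SE 0.46, edgeR adjusted p = 0.0276; 9.63% called higher). In each of these groups the marked and other cells lay closest in Csf3r+/+ library 2. Each of these 3 groups lost its call when either Csf3r-/- library was left out (edgeR adjusted p = 0.109 to 0.188), and Ly49 and Gzmb cells also did without Csf3r+/+ library 1 (0.091 and 0.090). The mean levels of Ifng, Gzmb and Ly49 cells, 59.0, 58.4 and 52.5 CPM, differed by less than their spread.

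Cells with both Tyrobp and Fcer1g, adaptors of NK cell receptors, held 63.9, 50.1, 39.0 and 44.9 CPM of Tbx21 without passing (log2 difference 0.98, SE 0.29, edgeR adjusted p = 0.116). This was above the other cells in 3 of 4 libraries. A middle range followed: Gzmk cells 32.8 ± 15.7, cycling cells (Mki67 or Top2a) 32.3 ± 12.5, Ccr7 cells 30.2 ± 11.5, Zbtb16 cells 26.7 ± 31.8 and Foxp3 cells 24.4 ± 15.1 CPM (SD over 4 libraries, 3 for Foxp3, since Csf3r+/+ library 1 had 7 such cells). None of these 5 groups passed, and each step between neighbours was smaller than their spread. Csf3r+/+ library 2 alone set the Zbtb16 cells high, at 74.3 CPM against 8.36 to 13.5 in the others.

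Type 3 cells stood at the low end for Tbx21. Cells with an Il17a UMI held 0, 19.5, 7.62 and 9.41 CPM against 37.1, 53.4, 19.8 and 21.4 CPM in other cells (log2 difference -1.34, SE 0.18, edgeR adjusted p = 3.1e-09; 3.89% called lower). In Csf3r+/+ library 1, 0 of 41 such cells held a Tbx21 UMI, which allows a share of up to 7.32%. In cells with Tmem176a and Tmem176b, which mark type 3 lymphocytes, Tbx21 stood at 17.2, 47.7, 6.32 and 7.62 CPM. Other cells held 55.1, 54.3, 49.9 and 37.7 CPM, so that Csf3r+/+ library 2 showed little difference. Tbx21 passed as lower in Tmem176 cells (19.7 ± 19.3 CPM, log2 difference -1.81, SE 0.44, edgeR adjusted p = 0.036, with 10.2% called lower). The same held for Cd8b1 cells (17.7 ± 8.39 CPM, edgeR adjusted p = 0.0248; 0.994% called lower) and for cells with Pdcd1, the gene of the inhibitory receptor PD-1 (17.0 ± 14.2 CPM, edgeR adjusted p = 0.0198; 0.488% called lower). The Il17a call held without each library in turn. The Tmem176 call was lost without Csf3r+/+ library 1 or either Csf3r-/- library (edgeR adjusted p = 0.083 to 0.139), the Cd8b1 call without either Csf3r+/+ library or Csf3r-/- library 1 (0.0541 to 0.181), and the Pdcd1 call without either Csf3r-/- library (0.0783 and 0.0831). At a thinned depth the Cd8b1 and Pdcd1 calls were lost (0.419 and 0.0886).

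Eomes followed another order. It was highest in cells with a UMI of Gzmk, the granzyme K gene, at 70.7, 193, 157 and 76.7 CPM, against 10.7, 35.1, 10.0 and 7.25 CPM in other cells. The log2 difference was 2.95 (SE 0.24, edgeR adjusted p = 5.9e-08; 3.72% called higher), and Gzmk cells numbered 162, 57, 39 and 61. Cells with Ccr7, the lymph node homing receptor, came next at 53.2, 59.2, 49.3 and 53.1 CPM (log2 difference 1.91, SE 0.26, edgeR adjusted p = 7.0e-05; 2.42% called higher).

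Pdcd1 cells, low in Tbx21, were high in Eomes: 37.9, 85.7, 15.9 and 11.7 CPM against 12.2, 33.4, 10.9 and 6.29 CPM in other cells (log2 difference 1.09, SE 0.16, edgeR adjusted p = 0.0197; 0.325% called higher). This call was lost without library 2 of Csf3r+/+ (0.159) or of Csf3r-/- (0.0539). Eomes was also higher in cycling cells (30.7 ± 21.0 CPM, edgeR adjusted p = 0.000122; 10.1% called higher) and in Ly49 cells (28.3 ± 9.61 CPM, edgeR adjusted p = 0.0106; 9.63% called higher). At a thinned depth the calls in Pdcd1, cycling and Ly49 cells were lost (edgeR adjusted p = 0.692, 0.553 and 0.0629), and the log2 difference of cycling cells went from 0.86 to 0.42. Those in Gzmk and Ccr7 cells held. In cells with both Tyrobp and Fcer1g, Eomes stood at 28.3 ± 12.9 CPM, above the other cells in 4 of 4 libraries. It was near the threshold without passing (log2 difference 0.93, SE 0.20, edgeR adjusted p = 0.0508), a difference close to that of Tbx21 there. In Gzmb cells, high in Tbx21, Eomes stood at 25, 23.0, 12.9 and 8.9 CPM and did not pass (edgeR adjusted p = 0.938), nor did it in Ifng cells (edgeR adjusted p = 0.347). The lowest levels were in Tmem176a and Tmem176b cells (7.99 ± 8.43 CPM, edgeR adjusted p = 0.0215; 10.2% called lower) and in cells with Zbtb16, which encodes PLZF (5.89 ± 4.34 CPM, edgeR adjusted p = 0.000698; 3.61% called lower). Il17a cells lay between these at 6.01 ± 4.24 CPM without passing (edgeR adjusted p = 0.129). The calls in Gzmk, Ccr7, cycling and Zbtb16 cells held without each library in turn, while that in Ly49 cells was lost without Csf3r-/- library 1 (0.0694) and that in Tmem176 cells without either Csf3r-/- library (0.0802 and 0.109). From the Pdcd1 cells down to the Gzmb cells, each step between neighbours was smaller than their spread.

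**Figure D3:**
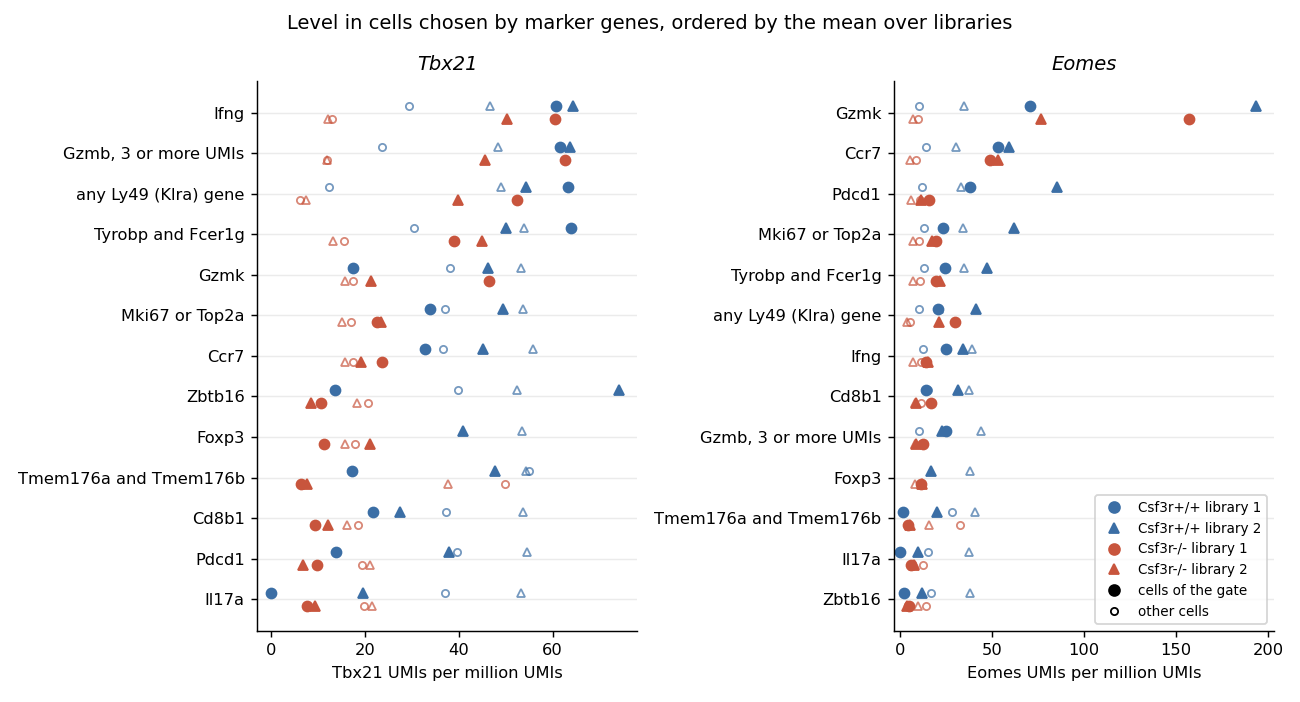
Level of Tbx21 (left) and Eomes (right), in CPM, in cells set apart by marker genes (filled) and in all other cells (open) of each library (blue Csf3r+/+, red Csf3r-/-, circle library 1, triangle library 2). Rows are ordered by the mean over libraries: Tbx21 was highest in Ifng, Gzmb and Ly49 cells (means of 59.0, 58.4 and 52.5) and Eomes in Gzmk and Ccr7 cells (means of 124 and 53.7).

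Within these groups the genotypes lay close together for some markers and further apart for others. Among Ly49 cells the Tbx21 difference between genotypes was -0.40 on the log2 scale (SE 0.20, edgeR adjusted p = 0.696), and among Ifng cells -0.26 (SE 0.21, edgeR adjusted p = 0.826). Outside the Ly49 cells it was -2.30 (SE 0.74, edgeR adjusted p = 0.37). Among Gzmb cells and cells with both Tyrobp and Fcer1g the Tbx21 difference was -0.29 and -0.49. Among Tmem176, Zbtb16, Pdcd1, Cd8b1, Ccr7 and cycling cells it was -2.30, -2.27, -1.81, -1.29, -1.04 and -0.98. For Eomes it ran from -2.29 among Pdcd1 cells to -0.22 among Gzmk cells, with -0.38 among Ly49 and -1.11 among Ifng cells. None of these differences passed in edgeR. Ly49 cells were 42.1% and 73.7% of Csf3r+/+ cells and 18.6% and 19.9% of Csf3r-/- cells, and they held 81.3%, 81.6%, 72.2% and 67.3% of the cells with a Tbx21 UMI. The difference between the genotypes in the Ly49 effect on Tbx21, 1.73 (SE 0.68), did not pass (edgeR adjusted p = 0.799).

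For Eomes, the Ccr7 cells stood out: the difference between marked and other cells was larger in Csf3r-/- by 1.88 on the log2 scale (SE 0.26, edgeR adjusted p = 2.4e-08 for the interaction; 2.51% of 10433 genes were called). Other cells held 14.3 and 30.6 CPM of Eomes in Csf3r+/+ and 9.02 and 5.49 CPM in Csf3r-/-, while the 4 Ccr7 levels lay between 49.3 and 59.2 CPM. Ccr7 cells numbered 68, 1100, 251 and 276, and they held 13, 337, 48 and 50 Eomes UMIs. The Csf3r+/+ libraries differed from each other in this, at 53.2 against 14.3 CPM in library 1 and 59.2 against 30.6 CPM in library 2. The SE and p of this interaction come from a single edgeR fit with 2 libraries a genotype. It was not repeated with another tool, thinned cells or left-out libraries. No other interaction of a marker with genotype passed for either factor among the 13 groups.

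Cells were then split by the factors themselves, into those with a Tbx21 UMI only (290, 926, 194 and 212 cells), an Eomes UMI only (106, 515, 92 and 93 cells) and neither. Tbx21 and Eomes were taken out of the table, and UMIs were summed per library and group. The cells are those of the marker comparisons above, read the other way round. Genes that served as markers there, such as Gzmk, Pdcd1, Ccr7 and the Klra genes, are therefore no independent result here. Of 7376 genes tested, 51 were higher in Tbx21-only cells (0.691%) and 31 in Eomes-only cells (0.42%, edgeR with Benjamini-Hochberg adjustment and library as block). Over cells with neither, 6 of the 51 passed as higher and 8 as lower in Tbx21-only cells, and 42 passed as lower in Eomes-only cells. Of the 31, 28 passed as higher in Eomes-only cells over neither, and 1 as higher and 1 as lower in Tbx21-only cells. Eomes-only cells were deeper, with medians of 3617 to 4633 UMIs against 2966 to 3613 in Tbx21-only cells. At 1500 UMIs a cell 3839 genes could be tested and the counts were 23 and 9. Of the 82 called genes, 68 were tested there and 27 were still called. The part of depth beyond this was not tested.

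On the Tbx21 side, Klra9, a Ly49 receptor gene, led. It stood at 360, 285, 253 and 252 CPM in Tbx21-only cells and at 77.2, 89.8, 14.3 and 76.5 CPM in Eomes-only cells (log2 difference 2.30, SE 0.35, edgeR adjusted p = 0.0013). The groups did not overlap. Klra genes are near-identical copies, so reads could be shared among them. Ifitm2 and Ifitm3, interferon-induced membrane genes that are also close relatives, differed by 2.00 (SE 0.39, edgeR adjusted p = 0.0137) and 1.93 (SE 0.31, edgeR adjusted p = 0.00231). Klra9, Ifitm2 and Ifitm3 were also higher in Tbx21-only cells than in cells with neither factor (log2 differences of 1.54, 1.26 and 1.07).

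The remaining named genes of this side did not pass as higher in Tbx21-only cells over cells with neither, and passed as lower in Eomes-only cells over the same cells. Cd40lg, the CD40 ligand gene, held 26.0, 41.2, 95.9 and 130 CPM in Tbx21-only cells, 0, 9.64, 28.6 and 48.4 CPM in Eomes-only cells and 40.7, 48.2, 121 and 207 CPM in cells with neither. Its log2 difference was 1.89 (SE 0.23, edgeR adjusted p = 0.000299). Socs2, a suppressor of cytokine signalling, held 73.0, 68.9, 84.8 and 86.8 CPM with Tbx21 and 22.3, 27.8, 23.8 and 38.2 CPM with Eomes (1.42, SE 0.20, edgeR adjusted p = 0.000563). Gata3, a factor of T helper and innate lymphoid cells, differed by 1.12 (SE 0.17, edgeR adjusted p = 0.00104), and Anxa1, which encodes annexin A1, by 1.71 (SE 0.22, edgeR adjusted p = 0.000323). Ly6g5b, Dkkl1, Ifi204, Iigp1 and Ckb made up the rest of the 12, with log2 differences of 1.17 to 1.56. Of these, Ly6g5b and Ckb were lower in Tbx21-only cells than in cells with neither (log2 differences of -1.25 and -1.20).

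The Eomes side was led by Gzmk. It stood at 244, 20.8, 73.9 and 86.7 CPM in Eomes-only cells and at 15.1, 3.46, 4.17 and 5.42 CPM in Tbx21-only cells (log2 difference -3.69, SE 0.34, edgeR adjusted p = 1.3e-05). Rgs16, a regulator of G protein signalling, held 193, 73.1, 93.0 and 122 CPM with Eomes and 26.8, 12.2, 6.95 and 25.8 CPM with Tbx21 (-2.80, SE 0.35, edgeR adjusted p = 0.000299). Pdcd1 held 223, 111, 95.4 and 224 CPM against 19.3, 19.4, 33.3 and 125 CPM (-2.16, SE 0.34, edgeR adjusted p = 0.0021).

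Ccr7 differed by -1.85 (SE 0.23, edgeR adjusted p = 0.000299), with the lowest levels of both groups in Csf3r+/+ library 1 (5.87 and 22.3 CPM). Crtam, an adhesion receptor of cytotoxic lymphocytes, differed by -1.58 (SE 0.23, edgeR adjusted p = 0.000855), and Tox, a factor of exhausted T cells, by -1.29 (SE 0.16, edgeR adjusted p = 0.000299). Slamf6, a receptor on progenitor-like T cells, was near the threshold at -1.20 (SE 0.29, edgeR adjusted p = 0.0498). Ube2c, a mitotic gene, also passed (-1.28, SE 0.25, edgeR adjusted p = 0.0154), while Tbc1d4, Cd55, Plek and Decr1 completed the 12 at -1.72 to -1.20. Of the 12 named genes of each side, Klra9, Cd40lg, Anxa1, Socs2, Iigp1 and Gata3 on the Tbx21 side and Gzmk, Rgs16, Pdcd1, Ccr7, Crtam and Tox on the Eomes side kept their call without each library in turn. Each of the others lost it without Csf3r-/- library 1, and some also without another library, with edgeR adjusted p-values up to 0.474 for Ube2c without Csf3r+/+ library 1. Tbc1d4 and Slamf6 lost their call whichever library was left out, and passed in 3 of 12 and 3 of 13 alternatives with library as block. Without cells that held a Gzmk UMI, 13 genes were higher with Tbx21 and 8 with Eomes. Of the genes that kept their call without each library, Anxa1, Iigp1, Crtam and Tox passed in 12 of 13 alternatives with library as block. The rest of those genes passed in every such alternative in which they were tested.

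**Figure D4:**
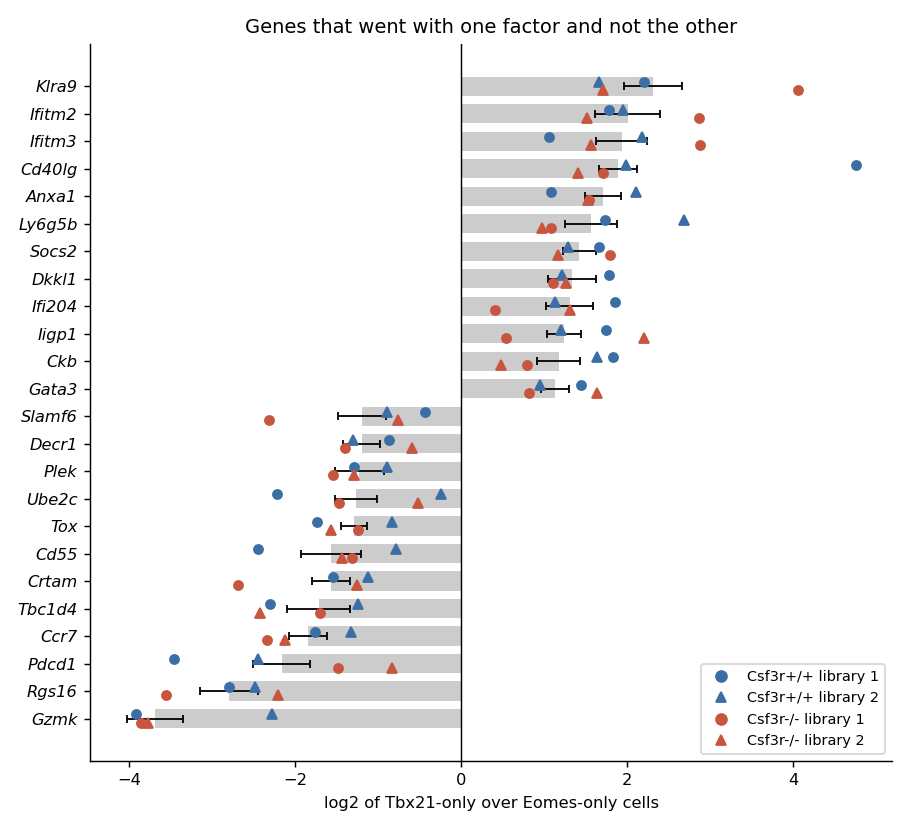
Log2 difference between Tbx21-only and Eomes-only cells for the 12 named genes of each side. Grey bars are the fitted difference with its SE, and points are libraries (log2 of CPM + 1; blue Csf3r+/+, red Csf3r-/-, circle library 1, triangle library 2). The genes were chosen for the same sign in every library, and the bars run from Klra9 at 2.30 to Gzmk at -3.69.

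By gene group, of 11 tested genes for granzyme K and exhaustion, 5 were higher with Eomes, namely Gzmk, Rgs16, Pdcd1, Tox and Ikzf2, and 0 with Tbx21 (median log2 difference -0.63 beside 0.00 over all genes). Beside this and the counts that follow, 0.42% of all 7376 genes tested were higher with Eomes and 0.691% with Tbx21. The lists were chosen with earlier results of these data known. Counts by list, here and below, thus do not test a list for enrichment. Of 15 memory and precursor genes, 2 were higher with Eomes, Ccr7 and Slamf6, of which Slamf6 lost its call whichever library was left out. Of 17 type 1 effector genes, 2 were higher with Tbx21, the cytokine gene Tnf (1.12, SE 0.25, edgeR adjusted p = 0.0324) and Cd226, an activating receptor gene (0.80, SE 0.15, edgeR adjusted p = 0.013). Ifng itself did not pass (1.07, SE 0.30, edgeR adjusted p = 0.0982), nor did Gzmb (1.11, SE 0.33, edgeR adjusted p = 0.127). Of 8 tissue residence genes, 2 were higher with Tbx21, Cxcr6 (0.92, SE 0.16, edgeR adjusted p = 0.00432) and Rgs2 (0.74, SE 0.14, edgeR adjusted p = 0.0117). Of 19 NK cell receptor genes, Klra9 alone passed, although 16 had a positive value, and of 28 inducers and regulators 2 were higher with Tbx21, Gata3 and Il2rg. Of 13 terminal effector genes 3 were higher with Tbx21, with Id2, an inhibitor of DNA binding, at 0.84 (SE 0.11, edgeR adjusted p = 0.000323) beside S100a4 and S100a6. Of 21 type 3 genes 2 were higher with Tbx21, Lgals3 (0.95, SE 0.17, edgeR adjusted p = 0.00697) and Cxcr6, which is also in the residence list. Each of these counts sets Tbx21-only against Eomes-only cells. Over cells with neither, 20 of 21 type 3 genes were lower in Tbx21-only cells, Cxcr6 among them.

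Against cells with neither factor, 197 genes were higher (2.67%) and 232 lower (3.15%) in Tbx21-only cells, and 467 were higher (6.33%) and 426 lower (5.78%) in Eomes-only cells. Both comparisons use the same cells with neither factor, which were shallower, with medians of 1959 to 2955 UMIs. At 1500 UMIs a cell 119 genes were called with Tbx21 and 161 with Eomes, in place of 429 and 893. The 429 became 920 without Csf3r+/+ library 2 and 106 to 146 without any other library, and the 893 became 432 without Csf3r-/- library 1, 497 without Csf3r+/+ library 1 and 528 without Csf3r-/- library 2. NK cell receptor genes were higher in 15 of 19 with Tbx21 (median log2 difference 1.15) and in 5 of 19 with Eomes (median 0.65). Type 3 genes were lower in 20 of 21 with Tbx21 (median -1.46) and in 21 of 21 with Eomes (median -2.01). Among them, Il23r, a chain of the interleukin 23 receptor, differed by -2.39 with Tbx21 and Il1r1, the interleukin 1 receptor gene, by -3.71 with Eomes. Type 1 effector genes were higher in 9 of 17 with Tbx21 and in 6 of 17 with Eomes, where 2 were lower.

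The named genes most like Tbx21 over neither included Ccl7, Klra9, 2810417H13Rik, Ccna2, Ncr1, Hist1h2ae and Xcl1 (log2 differences of 1.33 to 1.68 over 4 libraries). Ccna2 is a cell cycle gene, while Tbx21 itself did not pass in cycling cells (0.05, SE 0.13, edgeR adjusted p = 0.857). Tbx21-only cells were also deeper, with medians from 2966 UMIs up, against at most 2955 in cells with neither. The part of depth in this list was not tested. Ncr1 encodes the NK cell receptor NKp46, and it held 104, 24.2, 38.9 and 43.4 CPM with Tbx21 and 51.8, 17.8, 11.8 and 3.92 CPM with neither. The chemokine gene Xcl1 held 1964, 1534, 917 and 1026 CPM with Tbx21 and 896, 1401, 215 and 249 CPM with neither. Ccl7 rested on Csf3r-/- library 2, with 106 CPM there against 1.60 to 13.9 CPM in the others, the library with the most macrophage marker UMIs.

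Those most like Eomes were Gzmk, Rgs16, Mt1, Lag3, Ccr7, Nrgn, Birc5 and Ccna2 (1.97 to 3.55). Lag3, an inhibitory receptor gene, held 110, 11.9, 103 and 76.5 CPM with Eomes and 38.6, 8.77, 8.21 and 7.77 CPM with neither. The cell cycle genes Ccna2 and Birc5 were higher over neither with each factor, and neither passed between the factors (edgeR adjusted p = 0.584 and 0.112). Of macrophage markers, 6 of 10 were tested: 0 passed with Tbx21, and Cd68 passed with Eomes (1.81, SE 0.53, edgeR adjusted p = 0.029). Beside this, 2.67% and 6.33% of all genes were called higher over neither with Tbx21 and with Eomes. All 6 markers had a positive value with each factor, at a median log2 difference of 0.68 with Tbx21 and 0.80 with Eomes.

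Whether the difference between Tbx21-only and Eomes-only cells was another in Csf3r-/- than in Csf3r+/+ was tested as an interaction. edgeR called 0 of 7376 genes (percent called 0), with 270 at an unadjusted p under 0.05, and DESeq2 called 0, with 141. With 92 and 93 Eomes-only cells in the Csf3r-/- libraries, a difference of moderate size could go undetected.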

How the data were processed

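UTCαβ from 4 sarcoma samples were measured by droplet single-cell RNA sequencing (Single Cell 3′ kit v2). The authors aligned reads to mm10 with Cell Ranger and deposited UMI counts per gene and barcode, pooled into 1 matrix a genotype with the Cell Ranger aggregate option; the submitters' processing notes also name bcl2fastq, R 3.4.4 and Seurat 2.3.4. Whether the pooling equalised depth is not given in the sources used here. The files hold 32525 barcodes, and the Cd3e step left fewer cells than the study states for it.

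Counts were used as deposited. They were summed per library (the number after the barcode) and tested with edgeR 4.0.16 (quasi-likelihood, TMM factors, filterByExpr, Benjamini-Hochberg over all genes tested, threshold 0.05), with DESeq2 1.42.0 as an alternative, in R 4.3.3. Cells of a library are not replicates, and whether the libraries are separate mice rests on the study's methods. A sum needed at least 20 cells. The SE of an edgeR difference is the absolute log2 difference divided by the square root of its F statistic. CPM are UMIs per 1000000 UMIs of the same cells, an interval is an exact 95% Poisson interval, and a count of 0 allows up to 3 counts; both cover counting error only. No doublet caller was run. The fits were also run on simulated counts with a fixed dispersion and no difference between libraries of a group other than depth. That run does not show how the fits deal with the spread between these libraries. Depth was 9827411 to 23753033 UMIs a library.

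The members, marker groups and gene lists were chosen with earlier results of these data known. Named genes between the factors were the 12 of largest log2 difference in each direction with an adjusted p under 0.05, the same sign in every library and at least 20 CPM on average; those most like a factor were the 8 highest over neither under the same conditions. Up to 4 members of a list were open to naming by size of difference, called or not, and 5 genes each way between genotypes, where none was called. Genes pointed out beside these were chosen after their values were seen. Alternatives were other tools, factors and filters, the study's gene limits, all barcodes, thinned cells, cells without other types' markers, left-out libraries and the replicate block. Fits without cycling or Gzmk cells and genotype fits within marked cells were chosen after seeing the data. Some items are not reported here.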

Additional observations from a re-analysis of the deposited data

Results flagged for a closer look

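Barcodes that passed the other limits but had no Cd3e UMI entered none of the main comparisons, and both factors were found there above the limit that a count of 0 allows. Tbx21 stood at 48.2 and 55.0 CPM in the Csf3r+/+ libraries and at 16.8 and 18.2 CPM in the Csf3r-/- libraries. Eomes stood at 41.4 and 26.8 CPM in Csf3r+/+ and at 9.14 and 7.48 CPM in Csf3r-/-. In Csf3r+/+ library 1 the Eomes level without Cd3e (41.4 CPM) was above that with it (15.3 CPM).

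In Ccr7 cells the Eomes difference to other cells was 1.88 larger in Csf3r-/- on the log2 scale, by the edgeR interaction test (adjusted p = 2.4e-08). That fit was not repeated with another tool, thinned cells or left-out libraries. In 4 other pairs of factor and group, the libraries of each genotype lay on the same side of the other cells. The genotypes lay on opposite sides. How many such pairs would arise with no genotype difference was not computed. Tbx21 in Gzmk cells rested on 13, 16, 8 and 5 UMIs. Log2 ratios of marked over other cells (CPM + 1) averaged -0.648 in Csf3r+/+ and 0.89 in Csf3r-/- for Tbx21 in Gzmk cells, -0.227 and 0.349 for Tbx21 in Ccr7 cells, and -0.124 and 0.491 for Tbx21 in cycling cells. For Eomes in Cd8b1 cells they averaged -0.159 and 0.344. By the edgeR interaction test none of these 4 passed (adjusted p = 1, 0.238, 0.671 and 0.93).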

How the results depend on the processing

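Between genotypes, Tbx21 passed with DESeq2 (-1.54) and with no filter on low counts (-1.53). Leaving out 1 library in turn gave -1.85 to -1.14 for Tbx21 and -2.09 to -0.64 for Eomes, and both passed without Csf3r+/+ library 1 alone. DESeq2 called 626 genes, no filter 303, and left-out libraries 0 to 847. With the number after the barcode as a replicate block 300 genes were called, Tbx21 had -1.50 (edgeR adjusted p = 0.057) and Eomes -1.39 (0.21), and neither call changed. Deviations of same-numbered libraries from their genotype mean correlated at r = 0.296 over genes. With 2 libraries a genotype both pairs must give the same r and a crossed pair its negative, so this cannot show pairing. Within Il17a cells and within Gzmk cells the Tbx21 difference turned to 0.13 and 0.11, not passing. Within marked cells the other Tbx21 and Eomes differences kept their sign and did not pass; Eomes in Il17a cells and the Foxp3 groups had too few UMIs or cells to be fitted.

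Genes higher with Tbx21 and with Eomes numbered 169 and 114 with no filter, 23 and 9 thinned, 13 (Tbx21) and 8 (Eomes) without Gzmk cells, and 19 with Eomes without cycling cells. Left-out libraries gave 18 to 42 and 8 to 27, with the fewest without Csf3r-/- library 1. With no replicate block (libraries not matched) 0 and 0 were called. Genes called for Tbx21-only over neither numbered 800 with no filter, 119 thinned, 0 with no replicate block and 106 to 920 with left-out libraries. For Eomes-only over neither they numbered 161, 2 (thinned, no block) and 432 to 1120 with left-out libraries.

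The 3 groups with higher Tbx21 became 0 to 4 with a left-out library and 0 with no block, and the 4 with lower Tbx21 became 2 with DESeq2, 0 with no block and 1 to 4 with a left-out library. The 5 groups with higher Eomes became 2 thinned and 0 with no block, with 4 to 6 for left-out libraries, and the 2 with lower Eomes became 0 with no block and 1 to 2 for left-out libraries. Differences that did not pass changed sign for Eomes in Gzmb cells (-0.26 thinned, -0.030 with no block, -0.43 to 0.74 with left-out libraries) and Cd8b1 cells (-0.0077 for all barcodes, -0.21 thinned, -0.18 with no block, -0.18 to 0.26), and for Tbx21 in Gzmk cells (-0.52 to 0.21), Ccr7 cells (0.068 DESeq2, 0.018 no block, -0.16 to 0.32) and cycling cells (-0.011 no filter, -0.014 all barcodes, -0.045 thinned, -0.057 to 0.20). In Foxp3 cells left-out libraries gave -0.60 to 0.060 for Tbx21 and -1.25 to 0.26 for Eomes. Thinned, the share of cells with a UMI was 6.57% and 2.02% for Tbx21 and 2.92% and 0.934% for Eomes (Csf3r+/+, Csf3r-/-), and cells with both were 0.825 and 1.90 times the number under independence. The cause of these changes was not tested. With 1 UMI in most positive cells, depth limits every share of cells.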

Other observations

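Against cells with neither factor, 3 of 8 tested tissue residence genes were lower in Eomes-only cells and 3 of 8 in Tbx21-only cells, and 0 were higher, beside 5.78% and 3.15% of all genes called lower. Of 15 memory and precursor genes, 8 were higher and 1 was lower in Eomes-only cells, and 6 were higher and 1 was lower in Tbx21-only cells, beside 6.33% and 2.67% of all genes called higher. In Eomes-only cells Myb, a factor of precursor cells, was higher by 2.40 on the log2 scale (SE 0.34, edgeR adjusted p = 0.000117). Myb was absent from the 8 genes most like Eomes, so it missed their condition on mean CPM or on sign in every library. Also in Eomes-only cells, Itgae, the gene of the integrin CD103, differed by -2.25 (SE 0.34, edgeR adjusted p = 0.000204) and Cxcr6 by -1.82 (SE 0.16, edgeR adjusted p = 8.6e-07). Il7r, the interleukin 7 receptor gene and the lower member of the memory list, differed by -1.75 (SE 0.27, edgeR adjusted p = 0.000246). In Tbx21-only cells, compared with the same cells with neither, Itgae differed by -1.36 (SE 0.25, edgeR adjusted p = 0.00249), Cxcr6 by -0.90 (SE 0.15, edgeR adjusted p = 0.00107) and Il7r by -0.97 (SE 0.24, edgeR adjusted p = 0.0217).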
